A study of Oryza sativa Japonica Group with 31 samples.

Results

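Metallothioneins are small, cysteine-rich proteins that bind zinc, copper and cadmium through the sulfur of their cysteines. They buffer free metal in the cell, and their thiols also react with reactive oxygen species. Plant metallothioneins are sorted into types by how the cysteines are spaced. In plants generally, type 1 transcripts are best known from roots and type 2 transcripts from leaves and stems, while type 3 transcripts are known from leaves and ripening fruit. This account follows 7 rice metallothionein loci, of 55801 loci in the expression table, through 24 h of cold. Other metallothionein loci could not be looked for without gene descriptions, so the family below means these 7 loci only. The 7 loci were chosen by their identifiers and not by their values, though earlier results of these data were known. There are 4 loci assigned to type 1, 1 on chromosome 11 and 3 on chromosome 12. The other 3 loci are assigned to types 2 and 3, with 2 on chromosome 1 and 1 on chromosome 5, and the sources used here do not say which of them is type 2 and which is type 3.

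The samples came from seedlings of Nipponbare, a japonica rice cultivar, that were germinated in the dark and grown in liquid medium with 12 h of light at 28 °C and 12 h of dark at 22 °C. Control seedlings stayed in these conditions, and cold seedlings were moved to 4 °C on day 13 and collected after 24 h. The series as a whole asks how R-loops, DNA-RNA hybrids that displace a DNA strand, relate to the transcription of cold-responsive genes, and 4 of its 31 libraries are RNA-seq libraries, 2 control and 2 cold. The labels give leaf as the tissue, while the protocol speaks of collected seedlings.

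The RNA-seq values are deposited as FPKM, fragment counts divided by locus length and by the mapped fragments of the library. The table has a single column per treatment, so each value below is the authors' own and carries no SD or n. Without replicate values no test was made and differences are described only. The depth of the columns is unknown. All loci together summed to 584870 FPKM in control and to 554475 FPKM in cold. The table and the gene table at hand name none of the 7 loci. Neither their family nor the leaf label could thus be checked against gene descriptions, and no sequences are shown.

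The type 1 locus on chromosome 11, LOC_Os11g47809, had the highest level of the 7 in both treatments and was the single member listed higher in cold. The other 6 members were all listed lower in cold, as were 61% of the 28807 loci above 0 in both columns, while 39% were higher. Among the members averaging 1 FPKM or more, the largest differences were found at 2 loci of types 2 and 3. LOC_Os01g74300 was 4.12-fold lower in cold and LOC_Os05g11320 was 9.77-fold lower. As these are bulk samples, fewer cells of a type and less RNA per cell cannot be told apart.

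**Figure D1:**
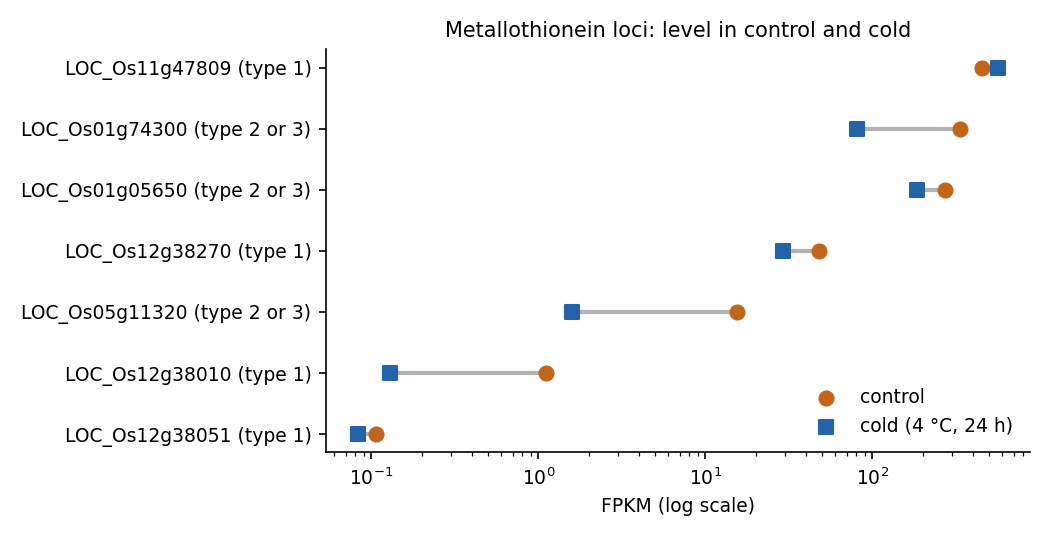
FPKM of each of the 7 loci (logarithmic axis) in control (circles) and cold (squares), ordered by the control value. Each point is 1 deposited value with no error. LOC_Os11g47809 is the single locus with its cold value to the right of its control value.

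Among the type 1 loci, LOC_Os11g47809 had a control value of 452 FPKM and a cold value of 562 FPKM, which is 1.25-fold higher. It ranked 123rd of 55801 loci in control and 82nd in cold, which puts it among the abundant transcripts of both samples. On the log2(FPKM + 1) scale, with a pseudocount of 1 that shrinks the differences of weakly expressed loci, its difference was 0.32. Averaged over both columns, 20876 loci reached 1 FPKM or more and were kept, and their median difference was −0.27, so this locus lay 0.59 above it. Of those 20876 loci, 72.3% had a lower value.

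The type 1 loci on chromosome 12 were weaker, and all 3 were listed lower in cold. The strongest of them, LOC_Os12g38270, had 47.7 FPKM in the control column against 29.3 FPKM in the cold column, a 1.63-fold lower level. It held nearly all of the chromosome 12 type 1 level. LOC_Os12g38010 stood at 1.11 FPKM without cold and at 0.130 FPKM with it, an 8.52-fold lower level at low values. LOC_Os12g38051 was close to 0 throughout, with 0.107 FPKM without cold and 0.0831 FPKM with it, a 1.28-fold lower level. The last 2 had a mean under 1 FPKM and are not among the kept loci. With the depth unknown, their counting error is unknown too, and the difference of LOC_Os12g38051 is not interpretable.

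LOC_Os11g47809 and LOC_Os12g38270 thus differed in direction, although both are type 1. The level of the first was 9.47 times that of the second in control and 19.2 times in cold. This ratio is taken within a column and does not depend on a scale factor between the columns. Short, similar loci can share reads, and the sources used here do not say how reads with several positions were treated, so the split of level among type 1 loci is uncertain. Summed, the 4 type 1 loci reached 500.4 FPKM without cold and 592 FPKM with it, a cold to control ratio of 1.18.

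Among the loci of types 2 and 3, LOC_Os01g74300 on chromosome 1 went from 332 FPKM in the control column to 80.6 FPKM in the cold column. Its rank among all loci went from 165th to 1154th. LOC_Os01g05650, on the same chromosome, differed less, with a control value of 271 FPKM and a cold value of 184 FPKM, which is 1.47-fold lower. In control LOC_Os01g74300 was 1.23 times as abundant as LOC_Os01g05650, and in cold LOC_Os01g05650 was 2.29 times as abundant as LOC_Os01g74300. This was the single exchange of order among the 7 loci. Whether LOC_Os01g74300 and LOC_Os01g05650 share reads was not tested, so the split of level between them is uncertain too. LOC_Os05g11320 on chromosome 5 was the weakest of the 3, at 15.5 FPKM without cold and 1.59 FPKM with it. The 3 loci together had 619 FPKM without cold and 267 FPKM with it, which is 2.32-fold lower.

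On the log2(FPKM + 1) scale the differences were −2.67 for LOC_Os05g11320, −2.03 for LOC_Os01g74300, −0.68 for LOC_Os12g38270 and −0.55 for LOC_Os01g05650. Below the median of all kept loci, they lay at −2.40, −1.76, −0.41 and −0.28. Of the kept loci, 0.35% had a lower value than LOC_Os05g11320 and 2.03% a lower value than LOC_Os01g74300. The other members were not extreme, with 31.3% of loci below LOC_Os12g38270 and 37.1% below LOC_Os01g05650. Weakly expressed loci cannot reach −2.67 with the pseudocount, which makes the smallest of these percentages smaller. Among the 828 loci averaging 100 FPKM or more, 3.74% had a lower value than LOC_Os01g74300. For LOC_Os01g05650 this was 39.0%, and for LOC_Os11g47809 it was 65.0%.

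**Figure D2:**
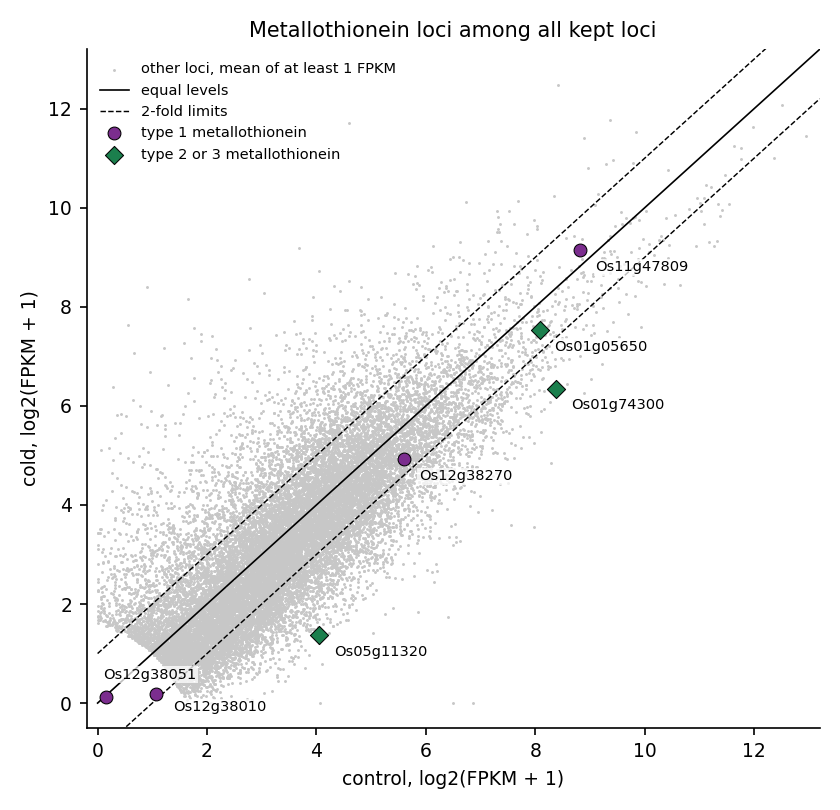
Level in control (x) and cold (y) on the log2(FPKM + 1) scale for the other kept loci (grey) and the 7 metallothionein loci (circles for type 1, diamonds for types 2 and 3). The solid line marks equal levels and the dashed lines the 2-fold limits. LOC_Os01g74300 and LOC_Os05g11320 lie below the lower limit.

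Counted against a 2-fold limit on that scale, 2 of the 5 kept members were lower in cold and 0 were higher. Over all 20876 kept loci, 19.2% were at least 2-fold lower and 12.5% at least 2-fold higher. The balance of this background depended on the scale. Median-of-ratios scaling gave 10.97% lower and 18.1% higher, and quantile normalization gave 14.2% lower and 14.8% higher, while 2 members were lower and 0 higher under both. Counts over 5 members are too small to set the family apart from that background. Of the 3 members averaging 100 FPKM or more, 1 was at least 2-fold lower, against 24% of 828 such loci, and 0 were higher, against 22.8%. The median log2 difference of the 5 members was −0.68, against −0.27 over all kept loci. LOC_Os12g38010 was also counted as at least 2-fold lower when pseudocount and filter were both dropped, and when both columns were rescaled to the same sum. That sum was larger than either deposited sum, so all values rose against the unchanged floor and pseudocount. Under it 6 members and 22666 loci were kept. Dropping the filter alone left LOC_Os12g38010 at −0.90, short of the limit. A pseudocount of 0.1 took its difference to −2.39, but its mean stayed under 1 FPKM.

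The treatments differed in how the summed level was divided among the 7 loci. The loci added up to 1119 FPKM without cold and 859 FPKM with it, a cold to control ratio of 0.767. They made up 0.191% of the summed FPKM of all loci in control and 0.155% in cold. LOC_Os11g47809 held 40.3% of the sum of these 7 loci in control and 65.5% in cold, while the share of LOC_Os01g74300 went from 29.7% to 9.39%. LOC_Os01g05650 held similar shares, 24.2% and 21.5%. Together the type 1 loci held 44.7% of the sum in control and 68.9% in cold. These shares do not move with a scale factor between the columns, whereas the ratio of the sums does. It was 0.975 under median-of-ratios scaling, which sets the median cold to control ratio of loci above 0 in both columns to 1. The ratio of the sums also depends on single loci, and without LOC_Os11g47809 it was 0.444. The largest fall in FPKM was at LOC_Os01g74300, from 332 FPKM in control to 80.6 FPKM in cold. The ratio without LOC_Os01g74300 was not computed, so how much of the lower sum rests on that locus is not given.

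**Figure D3:**
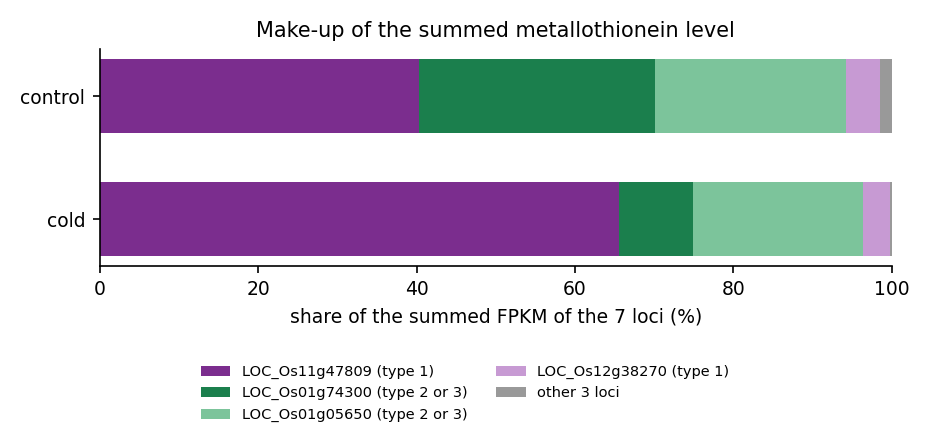
Share of the summed FPKM of the 7 loci (x, percent) held by each locus in control and cold, with the 3 weakest loci in control drawn as 1 segment. The LOC_Os11g47809 segment widens from 40.3% to 65.5% and the LOC_Os01g74300 segment narrows from 29.7% to 9.39%.

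The scale set between the columns left the direction of each member as it was. The median log2 difference of kept loci shifted by 0.30 under median-of-ratios scaling and by 0.17 under quantile normalization. The cold to control ratio of LOC_Os11g47809 was 1.25 as deposited and 1.58 under median-of-ratios scaling. That of LOC_Os01g74300 was 0.243 and 0.308. That of LOC_Os01g05650 was 0.681 and 0.866, so this locus was close to equal levels under that scale. LOC_Os12g38051 came to 0.989.

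**Figure D4:**
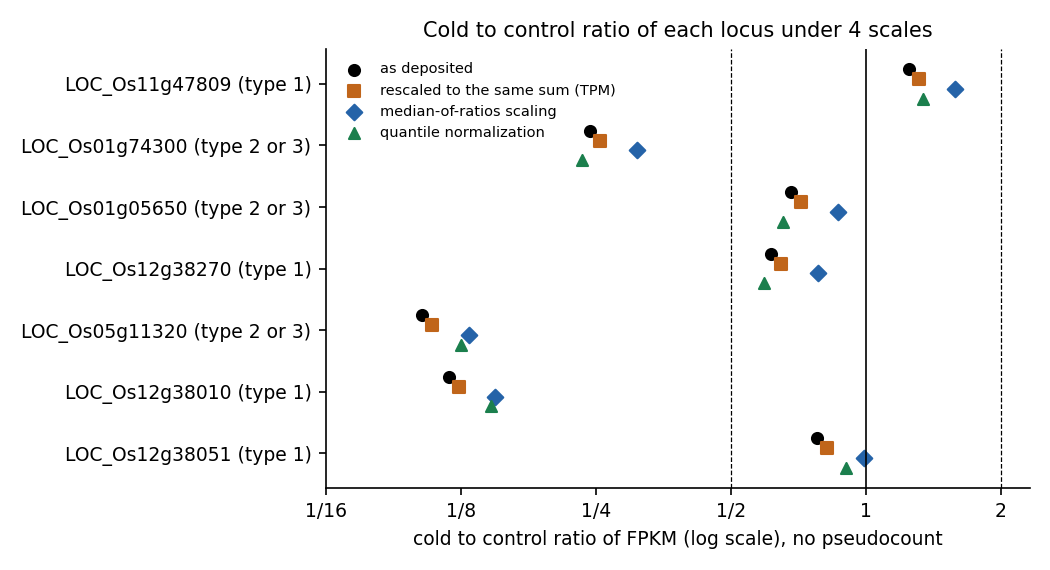
Cold to control ratio of FPKM (logarithmic axis, no pseudocount) of each locus as deposited and under 3 other scales. The solid line marks equal levels and the dashed lines 2-fold. LOC_Os11g47809 lies right of 1 under all 4 scales, and LOC_Os12g38051 reaches 0.989 under median-of-ratios scaling.

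The 3 loci on each side of each member, in the order of identifiers, were examined for levels and differences that resemble its own. The 5 kept members had higher levels than all 6 of their neighbours in both columns. Beside LOC_Os11g47809 the neighbours reached at most 27.9 FPKM without cold and 57.9 FPKM with it. Of the 3 kept neighbours there, 2 had cold levels past the 2-fold limit upward and 0 downward. Beside LOC_Os05g11320, 5 of 6 neighbours were listed at 0 in both columns, and the remaining one was at 0.219 FPKM in control and at 0 in cold. Beside LOC_Os01g74300, 3 of 6 neighbours were lower in cold, 2 were higher and 1 was listed at 0 in both. Of the 2 higher, 1 stood near 0, at 0.00476 FPKM without cold and 0.00596 FPKM with it. Beside LOC_Os01g05650, 3 were lower and 3 higher. LOC_Os01g74300 and LOC_Os01g05650 each had 4 kept neighbours, with 1 past the 2-fold limit downward and 0 upward. Over all kept loci, 19.2% were past the limit downward and 12.5% upward. Counts of so few neighbours are too small to set against these shares.

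For the weak LOC_Os12g38010 the picture was different. The locus next to it, LOC_Os12g38000, had 235 FPKM without cold and 101 FPKM with it, far above the 1.11 FPKM and 0.130 FPKM of the member, and was lower in cold as well. Whether reads of this neighbour entered the value of the member was not tested. LOC_Os12g38000 was named after its values were seen.

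**Figure D5:**
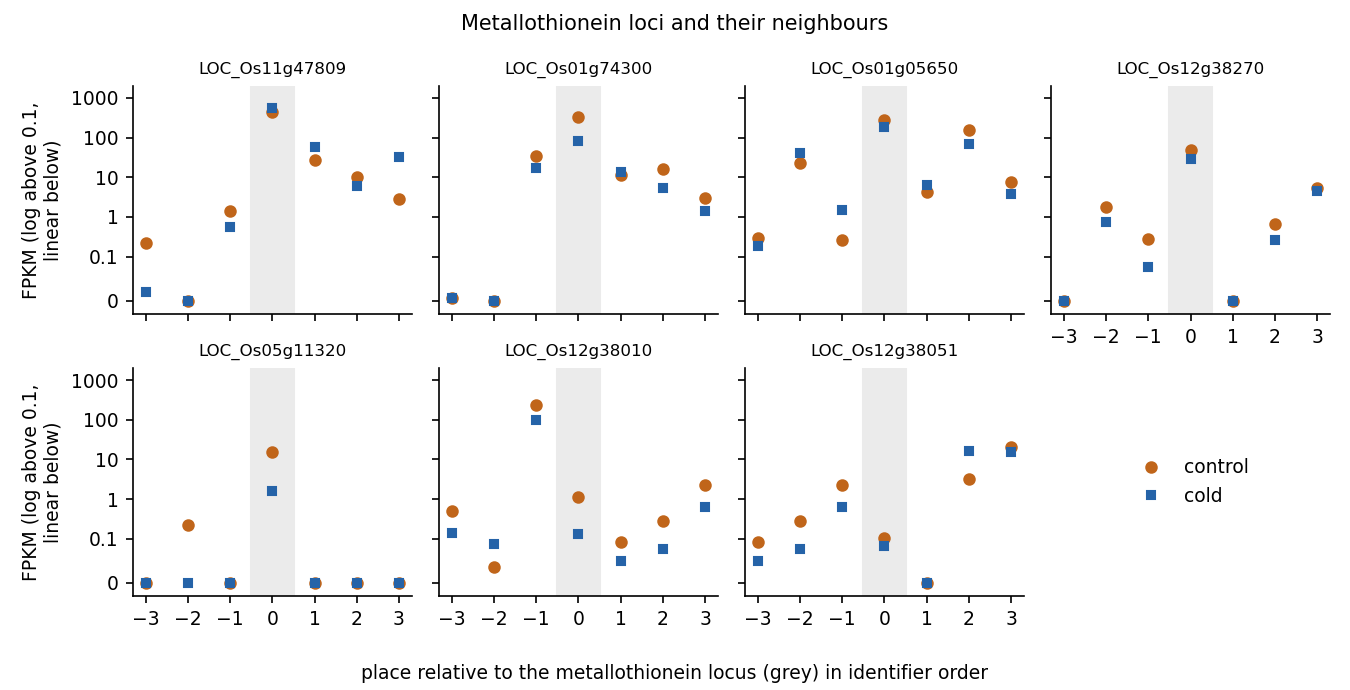
FPKM in control (circles) and cold (squares) of each metallothionein locus (place 0, grey band) and of the 3 loci on each side in identifier order. The axis is logarithmic above 0.1 FPKM and linear below. The 5 stronger members exceed their neighbours, and LOC_Os12g38010 lies beside a locus of 235 FPKM in control.

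The number of other loci near a member in both columns depends on how many loci share its level. Of 55801 loci, 828 averaged 100 FPKM or more. Within 0.25 of LOC_Os11g47809 on both log2(FPKM + 1) axes there were 2 other loci, and within the same distance of LOC_Os01g74300 there were 3. LOC_Os01g05650 had 24 such loci and LOC_Os12g38270 had 218. For the weaker LOC_Os05g11320, LOC_Os12g38010 and LOC_Os12g38051 there were 20, 508 and 30238. No such count was made for loci that are not members. Whether the counts are low for these levels was therefore not tested. The loci nearest to LOC_Os11g47809 by Euclidean distance over the 2 columns were LOC_Os03g14654 and LOC_Os06g04030. LOC_Os03g14654 had a control value of 460.0 FPKM and a cold value of 499 FPKM, at a distance of 0.18. For LOC_Os06g04030 these were 463 FPKM and 658 FPKM, at a distance of 0.23. Likeness over 2 values reflects only level and ratio.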

How the data were processed

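The authors deposited 1 table of FPKM values with a control and a cold column. The sources used here do not say whether a column is 1 library, merged reads or a mean. Per the submitters' processing notes, the tools of the series include HISAT2 2.1.0, featureCounts 1.6.4, SAMtools, Trimmomatic 0.39 and Trim Galore 0.4.3, and Bowtie and FastQC. The notes list them together and do not tie them to an assay. They give no build, annotation, strand setting or rule for reads that map to several positions. FPKM is relative to the mapped fragments, so a large difference in a few abundant transcripts moves the values of all others.

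The 7 loci and the comparisons were chosen with earlier results of these data known. All 7 members are named. The other named loci are the 2 nearest to the most abundant member and LOC_Os12g38000, a neighbour chosen after its values were seen. Fold changes are differences of log2(FPKM + 1) unless a ratio is named, the floor was a mean of 1 FPKM and the limit was 2-fold. No test was possible with 1 value per treatment. A RefSeq table of 39387 genes matched 0 of the 7 identifiers, so the planned metal-handling and leaf marker lists were not used. Chromosomes are those written in the identifiers. Values were recomputed with pseudocounts of 0.1 and 5, without the filter, with a floor of 5 FPKM and under 3 other scales. A fold without pseudocount was added after seeing the data. The scripts were tested on simulated data. Software was Python 3.11.15 with numpy 2.4.6, pandas 2.3.3 and matplotlib 3.10.9. The other 27 libraries of the series (DNase-seq, DRIP-seq, ChIP-seq and inputs) were not used here.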

Additional observations from a re-analysis of the deposited data

How the results depend on the processing

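Of 84 recomputed values, 66 stayed within the limits set (0.25 for log2 differences, 1.5-fold for counts, 10 percentage points for shares, 0.1 for ratios), 17 moved and 1 reversed. Some of the 66 could hardly have moved, such as family shares under a scale factor and strong loci under a pseudocount. The tally is therefore not a measure of robustness. No alternative turned the direction of a single member, though neither a pseudocount nor a filter could have done so. The number of members at least 2-fold lower was 2 or 3 and the number higher was 0 under every alternative run. The share of all loci at least 2-fold lower was 7.75% with a pseudocount of 5, where 7.97% were higher, and 7.34% with no filter, where 4.87% were higher. Under median-of-ratios scaling 10.97% were lower and 18.1% higher, so the excess of lower over higher loci turned under this scale, under a pseudocount of 5 and, with 14.2% and 14.8%, under quantile normalization. The ratio of the family sums, 0.767, was 0.975 under median-of-ratios scaling, 0.809 when rescaled to the same sum and 0.783 under quantile normalization. It stayed below 1 under each of these scales. Over other sets of loci, which is not another processing, it was 0.444 without the most abundant member and 1.18 for type 1 members alone. The value for type 1 members is the 1 counted as reversed. LOC_Os05g11320 ranged from −3.29 to −1.64 and LOC_Os12g38010 from −3.09 to −0.25 on the log2 scale, mostly with the pseudocount. No paired analysis was possible because the table carries no replicate columns, and no replicate could be left out either. As depth is unknown, so is the counting error, which limits the weakest loci most.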

Other observations

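The stretch of chromosome 12 that holds the 3 weaker type 1 loci was examined after their values had been seen. In the order of identifiers, 3 loci lie between LOC_Os12g38010 and LOC_Os12g38051 and 18 between LOC_Os12g38051 and LOC_Os12g38270. Of these 21 loci, 15 were lower in cold, 2 were higher and 4 were equal. Over the whole series, 61% of the 28807 loci above 0 in both columns were lower and 39% higher. The 21 were not filtered in this way, and the stretch was not tested against that background. Of the 21, 12 had a mean of at least 1 FPKM, and their median log2 difference was −0.80, against −0.68 for LOC_Os12g38270 and −0.27 for all kept loci. On the other side of LOC_Os12g38270, the next 3 loci had differences of 0, −0.41 and −0.24, and the first of them was listed at 0 in both columns. No test of LOC_Os12g38270 against the loci around it was made.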
